A study of Mus musculus with 28 samples.

Results

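Ionotropic receptors for glutamate and GABA carry most fast synaptic transmission in the brain, and 27 genes for their subunits were followed here across 4 brain regions and 3 *Hdc* genotypes. The genes were taken from a named list and kept where they exceeded 1 CPM (reads on a gene, scaled to a common library size) in at least 2 of 28 RNA-seq libraries. All 27 passed, out of 14979 genes that passed the same rule and 29878 genes listed in the count files. Of the 27 genes, 25 exceeded 1 CPM in all 28 libraries. *Gabre* did so in 16 libraries, 8 of ventral striatum and 8 of hypothalamus, and in 0 of dorsal striatum and motor cortex. The rule thus kept *Gabre* only through regions where it was higher, and the counts of genes below include it. *Gabrq* did so in 23 libraries, of which 5 were of dorsal striatum and 2 of motor cortex.

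The study sequenced dissected brain tissue from adult male mice, 2-3 months old and backcrossed to C57Bl/6, that were wild type (WT), heterozygous or knockout for *Hdc*, the gene of the enzyme that makes histamine. The knockout is constitutive, so the gene is altered in every cell throughout development. It serves as a mouse model of tic disorders, and the region panel covers the striatum, the cortex that projects to it and the hypothalamus, where the histamine neurons lie. Each library comes from whole tissue with all its cell types.

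The dorsal striatum had 2 WT, 3 heterozygous and 2 labelled KO libraries. For hypothalamus, as for ventral striatum, there were 3 WT, 3 heterozygous and 2 labelled KO libraries. The motor cortex had 1 WT, 2 heterozygous and 2 labelled KO libraries. Each library held between 3536802 and 5150280 counts on genes, with a median of 4392301.

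AMPA receptors are assembled from the GluA subunits (*Gria* genes) and open rapidly on glutamate release, while NMDA receptors combine an obligatory GluN1 subunit (*Grin1*) with GluN2 or GluN3 subunits, admit calcium and set the threshold for synaptic plasticity. Kainate receptors (*Grik* genes) act on both sides of the synapse, and GluD1 (*Grid1*) links the postsynaptic membrane to secreted cerebellins. GABA-A receptors are pentameric chloride channels in which alpha, beta and gamma subunits form the common synaptic receptor and delta, epsilon or theta subunits replace gamma or beta in receptors with other locations and kinetics.

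The region labels were checked with marker genes before the subunits were read. The 10 striatal spiny neuron genes summed to a lowest, median and highest CPM of 8800, 9798 and 12240 in dorsal striatum and 2100, 3549 and 4689 in ventral striatum. The same sum lay between 246.2 and 293.2 in motor cortex and between 308.1 and 341.9 in hypothalamus. *Pde10a*, a phosphodiesterase of spiny neurons, was the most abundant of the list in dorsal striatum. In ventral striatum *Penk*, the enkephalin precursor, was the most abundant. The cortical excitatory list summed to between 2105 and 2304 CPM in motor cortex, led by *Slc17a7*, the vesicular glutamate transporter of cortical neurons. The hypothalamic neuropeptide list, led by *Pmch*, summed to between 177.5 and 301.4 CPM in hypothalamus and to at most 16.12 CPM in any other library. *Hcrt* and *Pmch* had no count in most libraries outside the hypothalamus.

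Several libraries stood apart from their region. Labelled KO dorsal striatum 8 held 2840 CPM of choroid plexus genes, of which *Ttr* made up 2706, while the other dorsal libraries held at most 65.1. In labelled KO dorsal striatum 7 the cortical list reached 441.5 CPM against a median of 113.9 in its region. Labelled KO hypothalamus 8 held 566.7 CPM of the cortical list against a median of 233.8. Heterozygous hypothalamus 6 held the highest thalamic sum, 1126 CPM against a median of 674.8, and the lowest hypothalamic sum, 177.5. Labelled KO ventral striatum 8 had the lowest spiny sum of its region, 2100 CPM, and labelled KO ventral striatum 7 the highest, 4689.

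*Hdc* itself went against the genotype labels outside the hypothalamus. WT libraries held 3 and 0 *Hdc* counts in dorsal striatum, 1, 6 and 0 in ventral striatum and 0 in motor cortex. The labelled KO libraries held 40 and 31 counts in dorsal striatum, 49 and 51 in ventral striatum and 45 and 29 in motor cortex. Heterozygous libraries lay above WT and, with 1 exception, below labelled KO, with 33, 17 and 21 counts in dorsal striatum, 28, 20 and 23 in ventral striatum and 20 and 21 in motor cortex. In hypothalamus the counts were 79, 111 and 94 in WT, 79, 117 and 78 in heterozygous and 54 and 66 in labelled KO libraries, so there both labelled KO libraries lay below all others. Outside the hypothalamus every labelled KO library thus held more *Hdc* reads than every WT library. The paper reports that *Hdc* transcript levels were altered. Counts over the whole gene cannot separate deleted exons from remaining ones, so the genotype is called labelled KO throughout. The labels number the libraries with digits 1 to 8 but do not say that a digit marks a mouse, and the p-values measure the spread between these libraries.

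The subunit genes passed between regions in a larger share than all genes tested. The hypothalamus differed from the dorsal striatum in 25 of 27 subunit genes by the edgeR likelihood ratio test at an adjusted p under 0.05, with 11 higher and 14 lower in hypothalamus. Of all genes tested 56.1% passed, 30.7% higher and 25.5% lower. Against ventral striatum 9 subunit genes were higher and 13 lower in hypothalamus, beside 43.6% of all genes, 23.9% higher and 19.7% lower. Against motor cortex 11 were higher and 13 lower in hypothalamus, beside 48.2% of all genes, 25.4% higher and 22.9% lower. Motor cortex was higher than dorsal striatum in 10 genes and lower in 8, beside 43.4% of all genes, 22% higher and 21.4% lower. Over ventral striatum 10 were higher and 10 lower in cortex, beside 43.7% of all genes, 21.5% higher and 22.2% lower. The dorsal and ventral striatum, the nearest tissues, still differed in 22 genes, with 11 higher and 11 lower in dorsal striatum, beside 29% of all genes, 14.6% higher and 14.4% lower. These 6 comparisons share the libraries of each region.

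The libraries themselves separated in many of these genes. In the hypothalamus and dorsal striatum 23 of the 27 genes had no overlap between any library of either region, where 27.9% of all genes had none. The number was 20 between hypothalamus and motor cortex (30.3% of all genes), 16 between motor cortex and dorsal striatum (26.4%) and 14 between motor cortex and ventral striatum (24.6%). It was 14 between hypothalamus and ventral striatum (16%) and 13 between the striatal regions (9.65%). The median absolute log2 fold change of the subunit genes between hypothalamus and dorsal striatum was 1.24, against 0.41 for all genes. Between the striatal regions it was 0.63 against 0.23.

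The direction of these splits depends in part on scaling. With library size alone in place of TMM factors, the median over all genes of the log2 fold change moved from 0.05 to 0.41 in hypothalamus over dorsal striatum, from 0.03 to 0.24 over ventral striatum and from 0.05 to 0.28 over motor cortex. In dorsal over ventral striatum it moved from -0.01 to -0.17. The subunit split then read 12 higher and 10 lower in hypothalamus over dorsal striatum, 10 and 10 over ventral striatum, 13 and 9 over motor cortex, and 9 and 14 in dorsal over ventral striatum. No subunit gene that passed in a region pair changed its sign under that scaling, but 15 calls were lost, of which 10 are given with the genes. The other 5 were *Grik3* in hypothalamus over dorsal striatum (-0.425 to -0.06), *Grin1* over ventral striatum (-0.278 to -0.07) and *Grin2c* (-0.388 to -0.15), *Gabra5* (-0.274 to -0.04) and *Gabrb2* (-0.508 to -0.27) over motor cortex. Calls were gained for *Grik3* in motor cortex over dorsal striatum (0.25), for *Gabrb2* over dorsal striatum (0.51), *Grin2c* over ventral striatum (0.31) and *Gabrg3* and *Gabra2* over motor cortex (0.44 and 0.60) in hypothalamus, and for *Gria1* (-0.18), *Gria4* (-0.26) and *Gabra2* (-0.54) in dorsal over ventral striatum.

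The subunit genes differed in the region where they were highest. The mean CPM was highest in dorsal striatum for 9 genes, in motor cortex for 8, in hypothalamus for 7 and in ventral striatum for 3. The highest region passed the edgeR threshold against each of the other 3 for 7 genes in hypothalamus (*Grin2d*, *Grin3a*, *Grik1*, *Grik4*, *Gabrb1*, *Gabre* and *Gabrq*), 5 in dorsal striatum (*Grik2*, *Grik5*, *Gabra4*, *Gabrg3* and *Gabrd*) and 4 in motor cortex (*Gria3*, *Grin2a*, *Gabra3* and *Gabrb2*). No gene met this for ventral striatum, whose mean was the lowest for 1 gene only, *Grin2c*. Some of these genes met it with TMM factors only. With library size alone *Gabra3* was not called against hypothalamus, and *Gabrb2* was not called against ventral striatum or hypothalamus. Under the same scaling *Grik2* was not called against ventral striatum, nor *Grik5* against motor cortex. Per kilobase of exon, *Gria1* was the most abundant of the 27 in dorsal striatum (65.7 CPM per kb), ventral striatum (66.4) and hypothalamus (49.7). In motor cortex *Grin2b* was first with 54.8 CPM per kb. This rank depends on the length used. Per kilobase of the longest transcript *Grin1* was first in dorsal striatum (87.6) and motor cortex (88.8), and without length *Grin2b* was first in every region. The least abundant per kilobase of exon was *Gabre* in dorsal striatum (0.0535), ventral striatum (0.624) and motor cortex (0.0635), and *Grin2a* in hypothalamus (1.31).

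**Figure D1:**
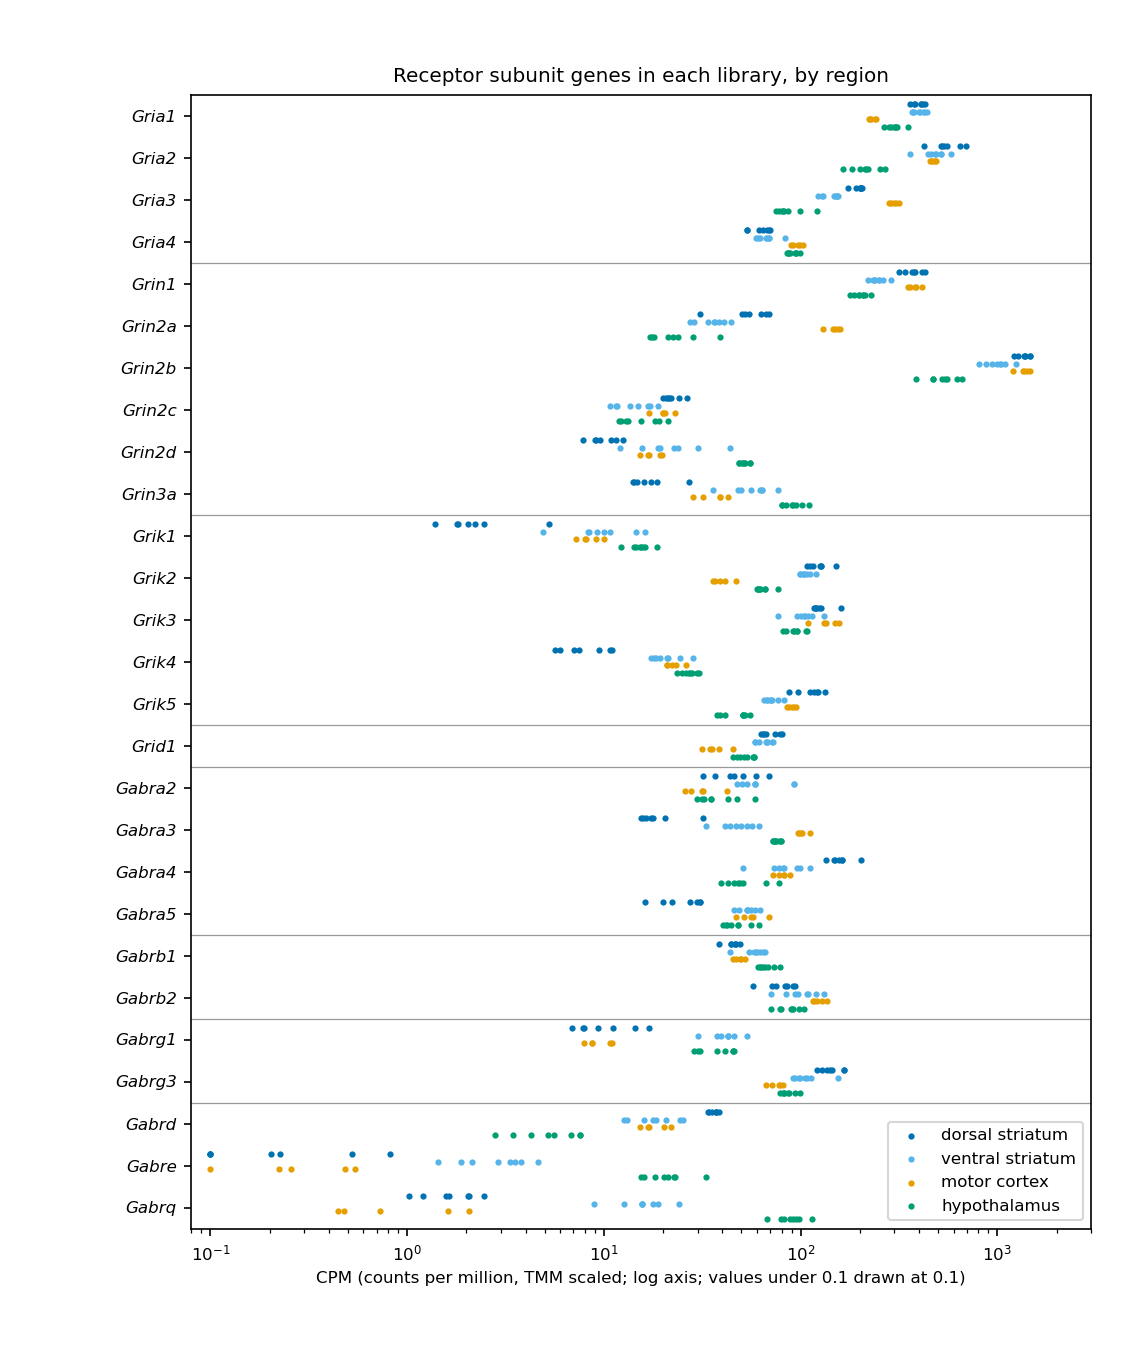
Normalised expression of each of the 27 subunit genes in each of the 28 libraries, as CPM with TMM scaling on a log axis. Libraries are grouped and coloured by region, genotype is not marked, and values under 0.1 CPM are drawn at 0.1. *Gabre* and *Gabrq* sit highest in all 8 hypothalamic libraries, and *Gabra3* forms 4 separate levels.

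Among the AMPA receptor genes, the cortex was marked by *Gria3* and the hypothalamus by little *Gria2*. *Gria3*, which encodes GluA3, measured 316.5 CPM in the WT motor cortex library, 304.4 and 289.4 in the heterozygous and 298.8 and 280.6 in the labelled KO ones. Its lowest, median and highest CPM were 174.5, 201.5 and 205.3 in dorsal striatum, 122.4, 148.2 and 154.3 in ventral striatum and 74.72, 81.88 and 121 in hypothalamus. The 4 regions thus formed 4 ranges without any overlap, from motor cortex down to hypothalamus. Motor cortex exceeded hypothalamus 3.39-fold (log2 fold change of hypothalamus over motor cortex -1.76 ± 0.0943 SE, edgeR adjusted p = 6.15e-79).

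*Gria2* encodes GluA2, the subunit that makes AMPA receptors nearly impermeable to calcium. It measured 163.9, 213.1 and 268.2 CPM in hypothalamus, against 425.4, 536.1 and 690.8 in dorsal striatum and 360.5, 483.8 and 578.8 in ventral striatum. Every hypothalamic library lay below every library of the other regions, and motor cortex (485.3 CPM in WT, 481.8 and 453.3 in heterozygous, 458.5 and 468.4 in labelled KO) overlapped both striatal regions. The hypothalamus was 2.57-fold below dorsal striatum (log2 -1.36 ± 0.108, edgeR adjusted p = 1.15e-34). *Gria1*, which encodes GluA1, went lowest in cortex instead. Its 5 cortical libraries (239.9 CPM in WT, 242.1 and 221.5 in heterozygous, 226.4 and 229.2 in labelled KO) lay below all others, with 266.8, 300.6 and 350.4 in hypothalamus, 358.7, 407.7 and 427.6 in dorsal striatum and 370.1, 402.1 and 441 in ventral striatum. The cortex was 1.69-fold below dorsal striatum (log2 -0.76 ± 0.0772, edgeR adjusted p = 1.04e-20). The smaller step of *Gria1* from dorsal striatum to hypothalamus, -0.40 on the log2 scale with TMM factors, read -0.03 and was not called with library size alone.

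*Gria4*, which encodes GluA4, was lower in both parts of the striatum. Dorsal libraries measured 53.36, 64.74 and 69.8 CPM, below all of the cortical range (89.07 to 103.3) and all of the hypothalamic range (84.94 to 99.77). Motor cortex exceeded dorsal striatum by 0.61 ± 0.0838 on the log2 scale (edgeR adjusted p = 1.66e-12) and hypothalamus exceeded it by 0.53 ± 0.0728 (edgeR adjusted p = 2.43e-12).

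As shares of the 4 AMPA genes in CPM per kilobase of exon, *Gria1* held 50.0% ± 1.96 (SD, n = 7) in dorsal striatum, 54.3% ± 0.916 (n = 8) in ventral striatum, 33.65% ± 0.516 (n = 5) in motor cortex and 57.2% ± 1.87 (n = 8) in hypothalamus. *Gria2* held 27.1%, 25.1% and 26.5% in the first 3 and 15.8% ± 1.67 in hypothalamus. The share of *Gria3* rose to 26.5% ± 0.747 in motor cortex from at most 15.25% elsewhere, and that of *Gria4* reached 16.7% ± 1.48 in hypothalamus. Which gene leads depends on the length used. Without division by length *Gria2* led in dorsal striatum (45.65%), ventral striatum (43.8%) and motor cortex (42.9%), and with the longest transcript as length *Gria3* led in motor cortex (35.3%).

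The ratio of 2 genes within a library needs no length and no scaling to compare regions. The log2 ratio of *Gria1* to *Gria2* counts averaged -0.47 ± 0.19 (SD) in dorsal striatum, -0.25 ± 0.139 in ventral striatum, -1.02 ± 0.0161 in motor cortex and 0.50 ± 0.163 in hypothalamus. By an exact permutation test, two-sided, with Benjamini-Hochberg adjustment over 24 ratio tests, hypothalamus exceeded motor cortex by 1.51 (adjusted p = 0.00186), dorsal striatum by 0.97 (adjusted p = 0.000932) and ventral striatum by 0.74 (adjusted p = 0.000932). The step of -0.23 from ventral to dorsal striatum passed as well (exact permutation test, adjusted p = 0.0286), but not without heterozygous dorsal striatum 5, WT dorsal striatum 2, labelled KO dorsal striatum 7 or labelled KO ventral striatum 8, with values from -0.28 to -0.19 over the left-out libraries.

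The NMDA receptor genes split into a forebrain group and a hypothalamic pair. *Grin2a* encodes GluN2A, whose share in receptors grows as forebrain synapses mature. Motor cortex libraries measured 148.8 CPM in WT, 145.3 and 129.7 in heterozygous and 158.4 and 155.7 in labelled KO. Dorsal striatum held 30.78, 54.75 and 68.95 CPM, ventral striatum 27.32, 36.64 and 44.44 and hypothalamus 17.23, 21.84 and 38.9. All 5 cortical libraries were above all 23 others, and the striatal and hypothalamic ranges overlapped. Cortex exceeded hypothalamus 6.2-fold (log2 of hypothalamus over cortex -2.63 ± 0.155, edgeR adjusted p = 1.2e-64), ventral striatum 4.17-fold (log2 2.06 ± 0.154, edgeR adjusted p = 1.06e-40) and dorsal striatum 2.63-fold (log2 1.39 ± 0.156, edgeR adjusted p = 2.02e-18).

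*Grin2b* encodes GluN2B, the subunit that slows the NMDA current. It measured 1208, 1378 and 1472 CPM in dorsal striatum, 810.4, 1009 and 1237 in ventral striatum and between 1198 and 1473 in motor cortex. The hypothalamic libraries (388.1, 530.8 and 661.3) lay below all of these. Hypothalamus was 2.55-fold below dorsal striatum (log2 -1.35 ± 0.0907, edgeR adjusted p = 8.53e-48), while cortex and dorsal striatum differed by -0.02, which read 0.11 with library size alone and was not called in either. *Grin1*, the obligatory subunit, was likewise lowest in hypothalamus (177.8, 202.6 and 227.2 CPM) and 1.88-fold below motor cortex (log2 -0.91 ± 0.0756, edgeR adjusted p = 6.28e-33). Dorsal striatum (315.4, 374.9 and 426.6 CPM) lay above all of the ventral striatum (220.7, 243.6 and 287.6 CPM), by 0.61 ± 0.0675 on the log2 scale (edgeR adjusted p = 5.84e-18). *Grin1os*, a gene on the opposite strand, shares 13.5% of the exon bases of *Grin1*, the largest share among the 27. *Grin1os* is not among the genes listed in the count files.

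The opposite order held for *Grin2d*, which encodes the slowly deactivating GluN2D of diencephalon, brainstem and interneurons. Its CPM was 48.57, 51.23 and 55.09 in hypothalamus and 7.827, 9.58 and 12.53 in dorsal striatum. Ventral striatum held 12.11, 21.07 and 43.77, and motor cortex 19.71 in WT, 16.9 and 15.18 in heterozygous and 19.26 and 16.76 in labelled KO libraries. Every hypothalamic library lay above every other library. Hypothalamus exceeded dorsal striatum 5.12-fold (log2 2.36 ± 0.17, edgeR adjusted p = 3.72e-41) and ventral striatum 2.16-fold (log2 1.11 ± 0.15, edgeR adjusted p = 2.08e-12).

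*Grin3a* encodes GluN3A, which lowers calcium entry. It too was highest in all 8 hypothalamic libraries (80.39, 90.87 and 110 CPM), with 36.05, 58.89 and 76.91 in ventral striatum, 28.48 to 42.71 in motor cortex and 14.09, 16.01 and 27.16 in dorsal striatum. The dorsal libraries lay below all others. Hypothalamus exceeded dorsal striatum 5.12-fold (log2 2.36 ± 0.13, edgeR adjusted p = 5.43e-69), and dorsal striatum was 3.25-fold below ventral striatum (log2 -1.70 ± 0.132, edgeR adjusted p = 3.5e-35). *Grin2c*, which encodes GluN2C and is known from cerebellum and astrocytes, had the smallest ratio of highest to lowest regional mean within the class (1.54), with 10.74 to 26.38 CPM over all libraries. Its lower level in hypothalamus than in dorsal striatum, -0.53 on the log2 scale, was -0.17 and not called with library size alone.

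In shares of the 4 GluN2 genes per kilobase, *Grin2b* held 85.9% ± 1.88 in dorsal striatum, 82.6% ± 3.31 in ventral striatum, 78.6% ± 2.05 in motor cortex and 63.4% ± 3.67 in hypothalamus. It led with each of the 3 lengths tried. *Grin2a* made up 11.8% ± 1.03 in motor cortex and at most 4.84% ± 1.19 in the other regional means. *Grin2d* made up 23.5% ± 3.03 in hypothalamus, 7.40% ± 3.76 in ventral striatum and 2.38% ± 0.458 in dorsal striatum. The log2 ratio of *Grin2a* to *Grin2b* was -3.20 ± 0.164 in motor cortex, against -4.65 ± 0.443 in dorsal striatum, -4.79 ± 0.198 in ventral striatum and -4.50 ± 0.297 in hypothalamus. Motor cortex exceeded ventral striatum by 1.59 (exact permutation test, two-sided, adjusted p = 0.00186) and dorsal striatum by 1.45 (adjusted p = 0.00233). The difference of 0.29 between hypothalamus and ventral striatum had an exact permutation adjusted p of 0.0472 and was lost in 11 of 16 tests that left out 1 library, with values from 0.23 to 0.35. Those libraries were hypothalamus WT 1 and 2, heterozygous 6 and labelled KO 8 and every ventral library but WT 2. The 2 striatal regions differed by 0.14 (exact permutation test, adjusted p = 0.494), which became 0.29 and passed without heterozygous dorsal striatum 4.

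**Figure D2:**
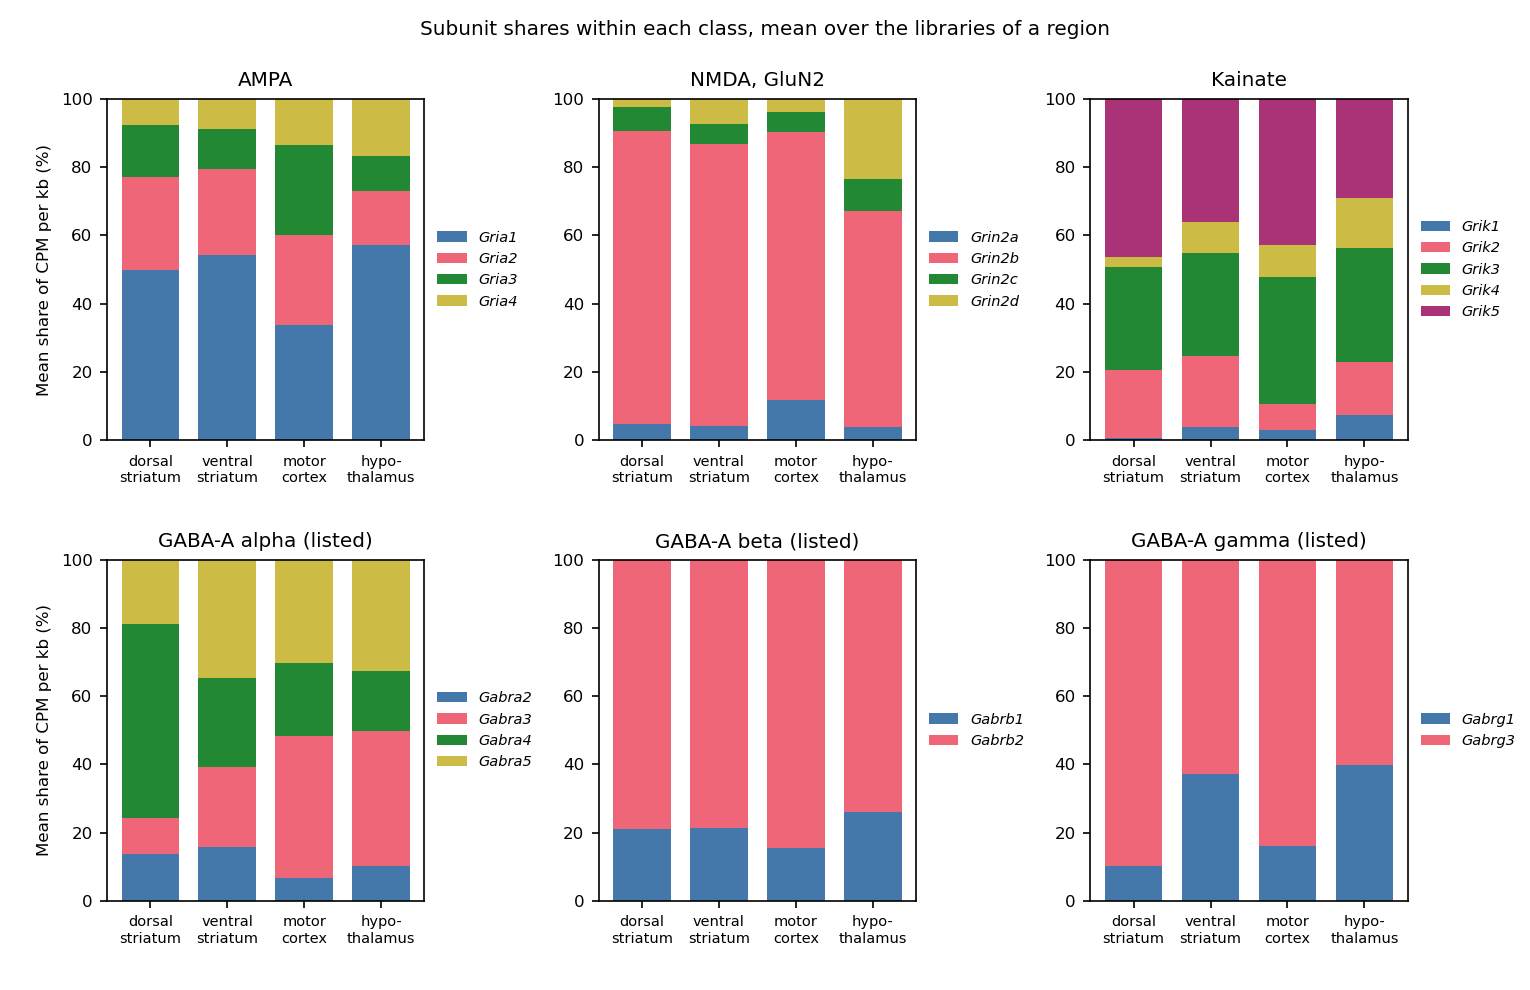
Mean share of each gene in its receptor class by region, in percent of the summed CPM per kilobase of exon, for the AMPA, GluN2 and kainate genes and the listed GABA-A alpha, beta and gamma genes. *Gria3* widens in motor cortex, *Grin2d* in hypothalamus and *Gabra4* in dorsal striatum, and the other GABA-A subunit genes are not part of the bars.

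The kainate receptor genes separated the dorsal striatum from the rest through *Grik4* and, but for 1 library, *Grik1*, and the motor cortex through *Grik2*. *Grik2* encodes GluK2, a subunit that forms channels by itself. Its CPM in motor cortex was 35.81 in WT, 38.86 and 36.79 in heterozygous and 41.44 and 46.76 in labelled KO. Hypothalamus held 60.22, 62.34 and 76.89, ventral striatum 99.11, 103.9 and 120.1 and dorsal striatum 107.6, 125.5 and 151.7. The cortical libraries lay below all others, and only the 2 striatal ranges overlapped. Cortex was 3.19-fold below dorsal striatum (log2 -1.67 ± 0.0971, edgeR adjusted p = 7.01e-63). The striatal regions differed by 0.23 (edgeR adjusted p = 0.0112), a call lost with library size alone (0.07) and without labelled KO ventral striatum 8 or WT dorsal striatum 1, with values from 0.15 to 0.30 over the left-out libraries.

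*Grik1* encodes GluK1, which is known from interneurons. It measured 1.381, 2.038 and 5.248 CPM in dorsal striatum, 4.903, 9.591 and 16.19 in ventral striatum and 12.28, 15.39 and 18.59 in hypothalamus. The highest dorsal value, labelled KO 8, reached into the ventral range, and the hypothalamic range lay above all dorsal libraries. Hypothalamus exceeded dorsal striatum 6.44-fold (log2 2.69 ± 0.235, edgeR adjusted p = 7.21e-35). *Grik4*, which encodes the GluK4 subunit that needs a partner such as GluK2 to form a channel, measured 5.64, 7.481 and 11.01 CPM in dorsal striatum, below every library of the other regions. Hypothalamus (23.62, 27.17 and 30.33 CPM) exceeded it 3.32-fold (log2 1.73 ± 0.133, edgeR adjusted p = 2.1e-41). The excess of *Grik4* in hypothalamus over motor cortex was only 0.28 (edgeR adjusted p = 0.0459). It was lost with DESeq2, with the quasi-likelihood test and in 10 of 13 fits that left out 1 library, any but heterozygous motor cortex 5, heterozygous hypothalamus 6 and labelled KO hypothalamus 8, with values from 0.22 to 0.34.

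*Grik5*, which encodes GluK5, the common partner subunit, was highest in dorsal striatum (86.83, 116.7 and 132.6 CPM) and lowest in hypothalamus (37.7, 50.93 and 55.19). Every hypothalamic library lay below every other library. The difference was 2.39-fold (log2 of hypothalamus over dorsal striatum -1.26 ± 0.0886, edgeR adjusted p = 2.77e-44). Motor cortex was below dorsal striatum by a smaller step of -0.35, which was lost with library size alone (-0.22) and without the WT motor cortex library (-0.25). *Grik3*, which encodes GluK3, spanned a narrow range from 76.71 to 159.5 CPM over all libraries and differed by at most -0.55 on the log2 scale between regions. Its level in dorsal over ventral striatum, 0.28, was 0.12 with library size alone and 0.22 without labelled KO dorsal striatum 7, and was called in neither.

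*Grid1*, the gene of GluD1, was lower in motor cortex (31.64 to 45.24 CPM) than in every library of dorsal striatum (62.58, 66.39 and 80.05) and ventral striatum (58.42, 66.96 and 72.63). Cortex was 1.9-fold below dorsal striatum (log2 -0.92 ± 0.0996, edgeR adjusted p = 3.37e-19). Hypothalamus (45.56, 52.62 and 58.23 CPM) lay above all cortical libraries. Its steps below dorsal and ventral striatum, -0.42 and -0.34, were -0.05 and -0.12 and not called with library size alone.

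Kainate shares per kilobase followed these levels. *Grik4* made up 2.97% in dorsal striatum, 9.15% in ventral striatum, 9.34% in motor cortex and 14.6% in hypothalamus. *Grik2* made up 19.9% and 20.8% in the striatal regions, 15.5% in hypothalamus and 7.44% in motor cortex. *Grik5* led in dorsal striatum (46.3%), ventral striatum (35.9%) and motor cortex (42.8%), and *Grik3* led in hypothalamus (33.5%). Without division by length *Grik3* led in dorsal striatum (33.9%), motor cortex (45.7%) and hypothalamus (38.0%), and with the longest transcript *Grik5* led in hypothalamus too (30.7%). In ventral striatum the mean CPM, without length, was 106 for *Grik2*, 104.7 for *Grik3* and 71.41 for *Grik5*.

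Among the listed GABA-A alpha genes, *Gabra3* and *Gabra4* changed places between the dorsal striatum and the motor cortex and hypothalamus. Other alpha, beta and gamma subunit genes were not analysed here, so each share is among the listed genes alone. *Gabra3* encodes the alpha3 subunit of synaptic receptors. Its CPM in motor cortex was 99.98 in WT, 98 and 96.48 in heterozygous and 112.2 and 102.2 in labelled KO. Hypothalamus held 72.1, 74.34 and 79.86, ventral striatum 33.16, 48.21 and 61.48 and dorsal striatum 15.45, 17.43 and 31.77. The 4 regions formed 4 ranges with no overlap in any pair. Motor cortex exceeded dorsal striatum 5.23-fold (log2 2.39 ± 0.0997, edgeR adjusted p = 1.39e-134) and hypothalamus exceeded it 3.88-fold (log2 1.96 ± 0.0913, edgeR adjusted p = 2.05e-107). Dorsal was 2.51-fold below ventral striatum (log2 -1.33 ± 0.0948, edgeR adjusted p = 6.49e-44). The step from motor cortex to hypothalamus, -0.43 on the log2 scale, was -0.19 and not called with library size alone.

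*Gabra4* encodes the alpha4 subunit, a partner of delta outside the synapse. It measured 134.4, 156.2 and 202.1 CPM in dorsal striatum, 51.11, 81.58 and 111.3 in ventral striatum and 39.47, 48.58 and 77.36 in hypothalamus. Motor cortex held 82.2 in WT, 88.83 and 77.7 in heterozygous and 72.12 and 82.44 in labelled KO libraries. All 7 dorsal libraries lay above all others, and the other 3 ranges overlapped. Dorsal exceeded ventral striatum 1.91-fold (log2 0.93 ± 0.135, edgeR adjusted p = 1.03e-10), and hypothalamus was 3.08-fold below dorsal striatum (log2 -1.62 ± 0.136, edgeR adjusted p = 7.92e-31).

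*Gabra5*, which encodes the alpha5 subunit of tonic and dendritic receptors, was lowest in dorsal striatum (16.19, 27.51 and 30.78 CPM), below every library of the other regions. Ventral striatum (45.85, 53.83 and 61.85 CPM) exceeded it 2.17-fold (log2 of dorsal over ventral -1.12 ± 0.108, edgeR adjusted p = 2.32e-23). *Gabra2*, which encodes the alpha2 subunit of spiny neurons and axon initial segments, ranged from 47.56 to 92.65 CPM in ventral striatum, from 32 to 69.06 in dorsal striatum, from 29.66 to 58.41 in hypothalamus and from 25.96 to 42.11 in motor cortex. The cortical libraries lay below the ventral ones, 2.1-fold (log2 -1.07 ± 0.186, edgeR adjusted p = 1.74e-07). *Gabra2* and *Gria2* passed in 3 region pairs each, the fewest of the 27. The call of *Gabra2* in motor cortex below dorsal striatum was lost without the WT motor cortex library (-0.81 to -0.49 over the left-out libraries). Under library size alone *Gabra2* passed also in dorsal below ventral striatum (-0.54) and in hypothalamus above motor cortex (0.60).

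In shares per kilobase of the 4 listed alpha genes, *Gabra4* held 57.0% ± 4.20 in dorsal striatum, 26.1% ± 4.61 in ventral striatum, 21.3% ± 1.80 in motor cortex and 17.7% ± 4.53 in hypothalamus. *Gabra3* held 10.7% ± 2.83, 23.5% ± 5.25, 41.7% ± 2.67 and 39.3% ± 2.32 in the same order. These 2 genes led in dorsal striatum and in motor cortex and hypothalamus respectively with each of the 3 lengths. In ventral striatum *Gabra5* led with 34.6% per kilobase, but *Gabra4* led with 33.4% without length. The log2 ratio of *Gabra4* to *Gabra3* fell from 3.05 ± 0.42 in dorsal striatum to 0.79 ± 0.528 in ventral striatum, -0.33 ± 0.181 in motor cortex and -0.55 ± 0.367 in hypothalamus. Dorsal exceeded ventral striatum by 2.26 (exact permutation test, two-sided, adjusted p = 0.000932), and hypothalamus and motor cortex differed by -0.22 (exact permutation test, adjusted p = 0.283).

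The beta genes differed less. *Gabrb1*, the gene of beta1, was highest in hypothalamus (61.04, 65.27 and 78.19 CPM) and lowest in dorsal striatum (38.67, 46.19 and 49.19), with no overlap between these. The difference was 1.47-fold (log2 0.56 ± 0.0838, edgeR adjusted p = 1.21e-10). Against ventral striatum, which overlapped it, the excess of 0.18 (edgeR adjusted p = 0.0441) was lost with DESeq2 (0.17) and in 11 of 16 fits that left out 1 library. Those were each hypothalamic library except heterozygous 6, and ventral WT 2, heterozygous 4 and 6 and labelled KO 8, with values from 0.13 to 0.23. *Gabrb2*, the gene of beta2, was highest in motor cortex (115.4 to 136 CPM) and lay above all dorsal libraries (57.48, 83.2 and 93.16). Its excess over dorsal striatum was 0.65 ± 0.131 (edgeR adjusted p = 2.46e-06). Over ventral striatum the excess was 0.31 (edgeR adjusted p = 0.0357), and it was lost with library size alone (0.28) and in 8 of 13 fits that left out 1 library (0.17 to 0.40). Those libraries were WT cortex 2, heterozygous cortex 5, both labelled KO cortex libraries, WT ventral 1, heterozygous ventral 4 and 6 and labelled KO ventral 7.

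The log2 ratio of *Gabrb2* to *Gabrb1* was 1.33 ± 0.111 in motor cortex, 0.80 ± 0.254 in dorsal striatum, 0.78 ± 0.369 in ventral striatum and 0.38 ± 0.277 in hypothalamus. Hypothalamus lay below motor cortex by -0.95 (exact permutation test, two-sided, adjusted p = 0.00186), and the striatal regions differed by 0.02 (exact permutation test, adjusted p = 0.915). The step of -0.40 from ventral striatum to hypothalamus (exact permutation test, adjusted p = 0.0397) was lost in 9 of 16 tests that left out 1 library, with values from -0.47 to -0.32. Those libraries were hypothalamus WT 1 and 3, heterozygous 5 and labelled KO 7, and ventral WT 2, heterozygous 4, 5 and 6 and labelled KO 8.

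**Figure D3:**
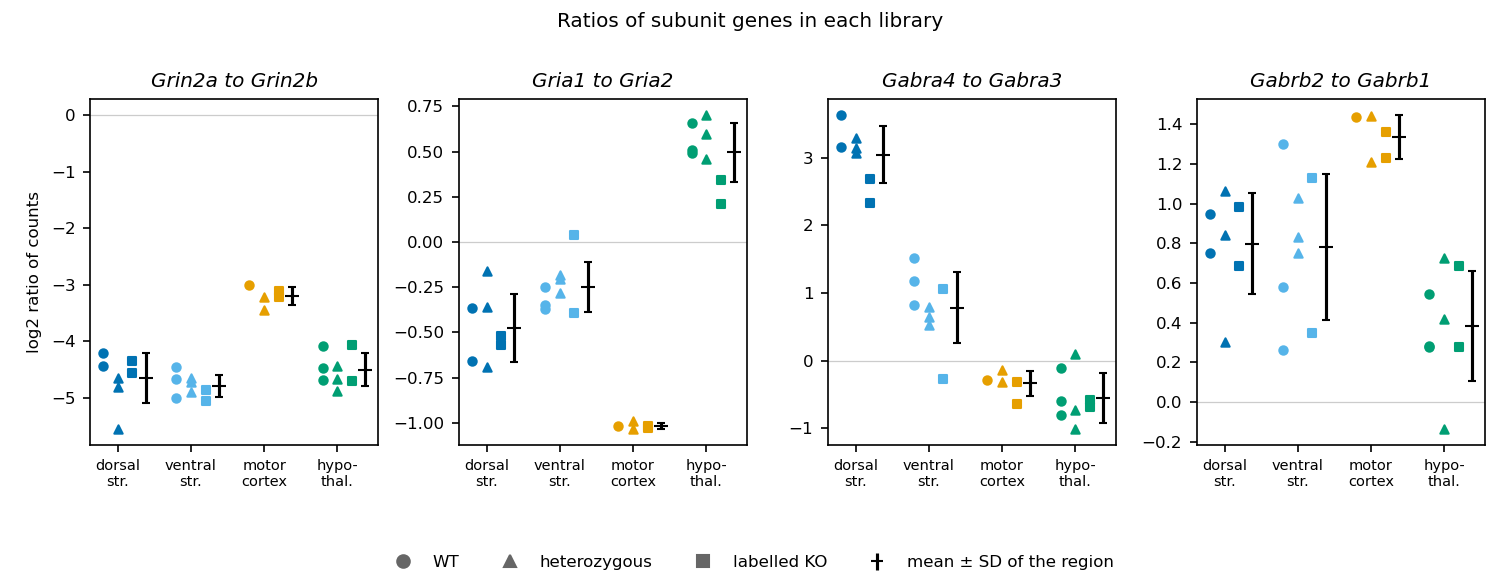
Log2 ratio of counts for 4 gene pairs in each library, by region and genotype, with the mean and SD of each region. The 5 motor cortex libraries stand above the other 23 for *Grin2a* to *Grin2b*, and the 7 dorsal striatum libraries stand above the others for *Gabra4* to *Gabra3*.

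Of the listed gamma genes, *Gabrg1* set the ventral striatum and hypothalamus against the dorsal striatum and cortex. It encodes gamma1, a gamma subunit of some forebrain and glial receptors. It measured 30.16, 42.66 and 53.39 CPM in ventral striatum and 28.84, 39.4 and 45.69 in hypothalamus. Dorsal striatum held 6.906, 9.318 and 16.89, and motor cortex 11.06 in WT, 7.966 and 8.747 in heterozygous and 8.735 and 10.81 in labelled KO libraries. The first 2 regions overlapped each other and lay above all libraries of the last 2. Dorsal was 4-fold below ventral striatum (log2 -2.001 ± 0.167, edgeR adjusted p = 1.41e-30), and motor cortex 4.32-fold below it (log2 -2.11 ± 0.192, edgeR adjusted p = 5.86e-25). *Gabrg3*, the gene of gamma3, was highest in dorsal striatum (121.5, 140.3 and 165.8 CPM), above all of the cortical libraries (66.89 to 81.83) and 1.9-fold above cortex (log2 of cortex over dorsal striatum -0.92 ± 0.108, edgeR adjusted p = 1.13e-15). Its lower level in hypothalamus than in ventral striatum, -0.32, was not called with library size alone (-0.11) nor without labelled KO ventral striatum 7 (-0.19). Of the 2 listed gamma genes per kilobase, *Gabrg1* made up 37.3% in ventral striatum and 39.8% in hypothalamus, against 10.3% in dorsal striatum and 16.02% in motor cortex.

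*Gabrd* encodes the delta subunit of tonic, extrasynaptic receptors. It measured 33.85, 37.04 and 38.68 CPM in dorsal striatum, 12.65, 18.08 and 25.38 in ventral striatum and 2.792, 5.388 and 7.6 in hypothalamus. Motor cortex held 16.82 in WT, 15.21 and 21.87 in heterozygous and 20.16 and 17.03 in labelled KO libraries. The dorsal libraries lay above all others and the hypothalamic ones below all others. Hypothalamus was 6.86-fold below dorsal striatum (log2 -2.78 ± 0.162, edgeR adjusted p = 1.03e-68), and dorsal exceeded ventral striatum by 1.00 ± 0.14 (edgeR adjusted p = 1.17e-11). The dorsal striatum was thus highest in both *Gabrd* and *Gabra4*.

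*Gabre* and *Gabrq*, the genes of the epsilon and theta subunits found in hypothalamus and brainstem, were the most regional of the 27. *Gabre* measured 15.39, 20.65 and 33.14 CPM in hypothalamus and 1.442, 3.117 and 4.62 in ventral striatum. In dorsal striatum it measured 0, 0.2038 and 0.8172, and in motor cortex 0 in WT, 0.4828 and 0.2573 in heterozygous and 0.224 and 0.5406 in labelled KO libraries. All 8 hypothalamic libraries lay above all others, and ventral striatum lay above dorsal striatum and motor cortex. The pooled *Gabre* counts were 883 in hypothalamus, 98 in ventral striatum, 7 in dorsal striatum and 6 in motor cortex. The level in hypothalamus was 86.3-fold that of dorsal striatum (95% Clopper-Pearson interval 41.7 to 215), 71.8-fold that of motor cortex (32.9 to 196) and 7.02-fold that of ventral striatum (5.7 to 8.75). These intervals cover counting error only, since the reads carry no molecular identifiers. *Gabre* passed the 1 CPM rule through hypothalamus and ventral striatum alone, so the rule itself favoured a gap to dorsal striatum and motor cortex. Without heterozygous dorsal striatum 6, which held 3 of the 7 dorsal counts, the first ratio was 132, and over motor cortex it ranged from 57.1 to 88.1 over the left-out libraries.

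*Gabrq* measured 67.81, 89.76 and 113.7 CPM in hypothalamus, 8.888, 15.66 and 24.04 in ventral striatum and 1.019, 1.634 and 2.452 in dorsal striatum. Motor cortex held 0.4807 in WT, 0.7242 and 2.058 in heterozygous and 0.448 and 1.622 in labelled KO libraries. The hypothalamic libraries lay above all others, and those of ventral striatum above those of dorsal striatum and motor cortex. The pooled counts were 3735 in hypothalamus, 531 in ventral striatum, 49 in dorsal striatum and 21 in motor cortex. The hypothalamic level was 52.2-fold that of dorsal striatum (39.4 to 70.6), 86.8-fold that of motor cortex (56.7 to 140) and 5.48-fold that of ventral striatum (5.01 to 6.02). In edgeR, hypothalamus exceeded ventral striatum by 2.83 ± 0.214 for *Gabre* (adjusted p = 1.31e-42) and by 2.46 ± 0.128 for *Gabrq* (adjusted p = 4.59e-78).

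*Gabre*, *Gabra3* and *Gabrq* lie close together on the X chromosome, and all 3 exceeded their dorsal striatal level in hypothalamus and in ventral striatum, so their promoters are shown. The RefSeq promoter table for GRCm38.p6 held 19 of the 27 genes. Each sequence is the stretch before the annotated start, 5′ to 3′ on the strand of the gene, with no annotated exon inside. Capitals mark matches on either strand to the GC box GGGCGG, the core promoter element TATAAA, the box known as CCAAT or the cAMP response element TGACGTCA, which do not overlap here. The stretches are chrX:72274804-72274971 on the minus strand for *Gabre*, chrX:72824928-72825177 on the plus strand for *Gabrq* and chrX:72656849-72657057 on the minus strand for *Gabra3*, which has 2 entries in the table, of which the nearest was used.
Gabre: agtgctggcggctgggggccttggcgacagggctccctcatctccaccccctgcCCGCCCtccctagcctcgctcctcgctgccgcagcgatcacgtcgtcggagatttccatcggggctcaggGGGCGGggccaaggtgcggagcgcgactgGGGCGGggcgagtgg
Gabrq: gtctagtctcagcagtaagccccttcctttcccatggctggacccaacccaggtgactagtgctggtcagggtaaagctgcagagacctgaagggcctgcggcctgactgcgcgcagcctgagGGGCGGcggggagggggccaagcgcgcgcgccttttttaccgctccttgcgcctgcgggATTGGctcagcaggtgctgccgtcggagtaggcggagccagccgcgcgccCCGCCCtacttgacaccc
Gabra3: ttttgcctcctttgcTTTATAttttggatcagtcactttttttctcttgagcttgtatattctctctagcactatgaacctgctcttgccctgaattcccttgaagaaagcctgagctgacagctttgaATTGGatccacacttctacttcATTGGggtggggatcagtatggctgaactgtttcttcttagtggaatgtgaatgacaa

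The *Gabre* stretch of 168 bases was 73.2% G and C and held 3 GC boxes, a motif present in 19.2% of the 32851 promoters at that length. It held no TATAAA (8.01% of promoters), no CCAAT (22.8%) and no TGACGTCA (0.478%). *Gabrq*, with 250 bases and 67.2% G and C, held 2 GC boxes (32.7% of promoters) and 1 CCAAT (33.8%), and neither TATAAA (12.4%) nor TGACGTCA (1.55%). *Gabra3*, with 209 bases and 41.1% G and C, held 1 TATAAA (9.51% of promoters) and 2 CCAAT (29.8%), and neither GGGCGG (26.5%) nor TGACGTCA (0.977%). All 3 matches of *Gabra3* were on the strand opposite to the gene. Its TATAAA began at base 16 from the 5′ end of the stretch, the end far from the gene start. The median promoter of 250 bases was 52.4% G and C. The matches are descriptions of the letters.

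Other GABA-A genes also lie in clusters, but not *Gabrb2* and *Gabrd*. The 27 genes lie on 12 chromosomes of GRCm38, and 9 of them, all GABA-A genes, form 6 neighbour pairs less than 1 Mb apart. On chromosome 5 *Gabrg1* lies 115 kb from *Gabra2*, *Gabra2* lies 474 kb from *Gabra4*, and *Gabra4* and *Gabrb1* start head to head with 46 shared exon bases. On chromosome 7 *Gabrg3* and *Gabra5* lie 20.5 kb apart, and on the X chromosome *Gabre* lies 158 kb from *Gabra3*, which lies 168 kb from *Gabrq*. Some neighbours shared their highest or lowest region and others did not. *Gabrg1* and *Gabra2* were both highest in ventral striatum and lowest in motor cortex. *Gabra4* was highest and *Gabrb1* lowest in dorsal striatum, and *Gabrg3* was highest and *Gabra5* lowest there.

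Within ventral striatum the libraries at either end of the spiny sum differed in several of these genes. Labelled KO ventral striatum 8, with the lowest spiny sum of 2100 CPM, had the highest ventral *Grin2d* (43.8), *Grin3a* (76.9) and *Grik1* (16.2) and the lowest *Gabra4* (51.1) and *Gabrd* (12.65). WT ventral striatum 3, with a spiny sum of 2410 CPM, had 30.0 CPM of *Grin2d*, 63.9 of *Grin3a*, 73.7 of *Gabra4* and 13.1 of *Gabrd*. At the other end, labelled KO ventral striatum 7, with 4689 CPM of spiny genes, had 15.6 CPM of *Grin2d*, 49.9 of *Grin3a*, 111.3 of *Gabra4* and 18.4 of *Gabrd*. The order was not strict over the 8 libraries, since WT ventral striatum 1, with 3947 CPM of spiny genes, had the lowest *Grin2d* (12.11), *Grin3a* (36.05) and *Grik1* (4.903) and the highest *Gabrd* (25.38). The part of tissue composition in the difference between the striatal regions was not tested, and in whole tissue fewer cells of a type and less RNA per cell cannot be told apart.

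**Figure D4:**
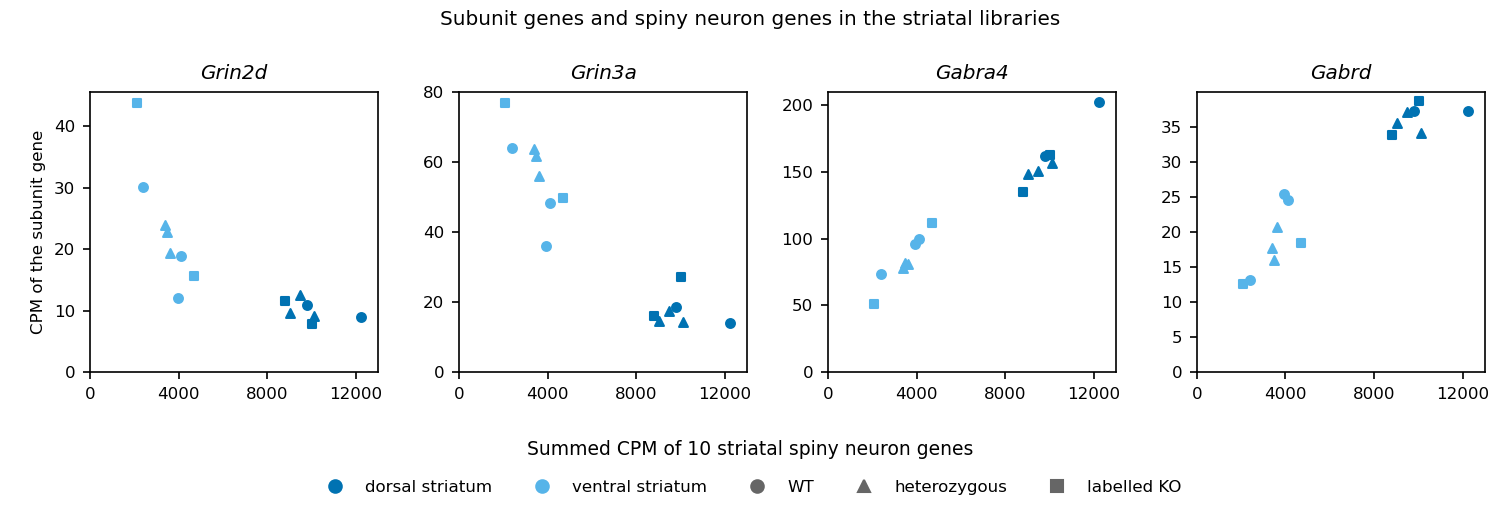
CPM of *Grin2d*, *Grin3a*, *Gabra4* and *Gabrd* in each of the 15 striatal libraries against the summed CPM of 10 spiny neuron genes in the same library. The dorsal libraries (8800 to 12240 CPM of spiny genes) lie apart from the ventral ones (2100 to 4689), with lower *Grin3a* and higher *Gabra4* and *Gabrd*, while for *Grin2d* 1 ventral library (WT 1, 12.11 CPM) lies below the highest dorsal one (12.53).

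In hypothalamus 3 libraries with unusual marker sums also held extreme subunit values. Heterozygous hypothalamus 6, with the lowest hypothalamic and highest thalamic sum, had the lowest *Gabre* (15.4 CPM) and *Gabrq* (67.8) and the highest *Gabra4* (77.4). Heterozygous hypothalamus 5, with the highest hypothalamic sum (301.4 CPM), had the highest *Gabre* (33.1) and *Gabrq* (113.7). Labelled KO hypothalamus 8, with the raised cortical sum, had the highest *Grin2a* (38.9 CPM), *Gria2* (268.2), *Gria3* (121) and *Grin2b* (661.3). The part of neighbouring tissue in these values was not tested.

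Genes for partner proteins of the receptors also differed between regions. Of 12 AMPA receptor auxiliary genes, 10 were both found by name in the count files and past the filter on low counts. *Cacng7* and *Cacng8* were not tested, for 1 or the other of these reasons. In motor cortex 3 were higher and 6 lower than in dorsal striatum (beside 22% and 21.4% of all genes), among them *Cacng4*, a transmembrane AMPA receptor regulatory protein gene (log2 -3.21 ± 0.122), *Shisa9* (-1.40) and *Cnih3*, a cornichon gene (2.43 in favour of cortex). The higher call of *Shisa6* (0.545) was lost without WT dorsal striatum 2, labelled KO dorsal striatum 8 or heterozygous motor cortex 6 (0.397 to 0.772 over the left-out libraries), and the lower call of *Cacng5* (-0.66) without labelled KO dorsal striatum 7 or the WT motor cortex library (-0.77 to -0.51). Hypothalamus had 3 higher and 6 lower than dorsal striatum (beside 30.7% and 25.5% of all genes), with *Gsg1l* (-2.91), *Cacng3* (-2.14) and *Shisa7* (-1.83) among the lower. Dorsal striatum had 5 higher and 2 lower than ventral striatum (beside 14.6% and 14.4%), with *Cacng4* (1.07) and *Gsg1l* (1.29) higher and *Cnih3* (-1.02) lower. Both kainate auxiliary genes, *Neto1* and *Neto2*, were lower in hypothalamus than in dorsal striatum (-2.46 and -1.93) and lower in ventral than in dorsal striatum (0.34 and 1.22 for dorsal over ventral), though 1 of the 2 last calls was lost with library size alone. All 3 cerebellin ligands of delta receptors were higher in hypothalamus than in dorsal striatum, *Cbln1* by 5.76, *Cbln2* by 3.94 (4.79 without labelled KO dorsal striatum 7) and *Cbln4* by 4.004.

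Among 14 glutamate synapse scaffold genes, 10 were lower and 1 higher in hypothalamus than in dorsal striatum (beside 25.5% and 30.7% of all genes), and 8 lower and 2 higher with library size alone. *Homer1* (-3.06), *Dlgap2* (-2.53) and *Dlgap3* (-2.33) were among the lower and *Shank1* (1.40) was the higher. *Shank2* (-0.34) and *Dlgap4* (-0.33), called lower, changed sign with library size alone (0.02 and 0.03, not called). Against motor cortex 12 were lower in hypothalamus and none higher (beside 22.9% and 25.4% of all genes), among them *Dlgap2* (-2.60), *Homer1* (-2.51) and *Dlgap1* (-1.97), with 12 lower and 1 higher under library size alone. Motor cortex had 9 higher and 1 lower than ventral striatum under both scalings (beside 21.5% and 22.2% of all genes with TMM factors). Dorsal striatum had 8 higher and 1 lower than ventral striatum (beside 14.6% and 14.4%), which became 6 and 5 with library size alone, with *Dlgap3* (1.46) and *Shank3* (0.94) higher and *Shank1* (-0.99) lower. The higher calls of *Dlg1* (0.22, 0.15 to 0.31 over the left-out libraries) and *Dlg3* (0.25, 0.18 to 0.31) were lost, the first without WT dorsal striatum 1 or labelled KO ventral striatum 8 and the second without labelled KO dorsal striatum 7. Of 7 GABA-A anchoring genes 2 were higher and 5 lower in hypothalamus than in dorsal striatum (beside 30.7% and 25.5% of all genes), but 3 higher and 1 lower with library size alone. *Iqsec3* (1.13) was among the higher and *Gphn* (-0.61) and *Clptm1* (-0.47) among the lower. Of the 5 lower genes 3 changed sign, *Nlgn2* from -0.19 to 0.18, which was called, and *Lhfpl4* (-0.27 to 0.09) and *Slitrk3* (-0.28 to 0.09), which were not. Only 1 of *Gphn* and *Clptm1* was still called lower under that scaling. The higher call of *Gabarap* (0.17) was lost in 6 of 15 fits that left out 1 library (0.125 to 0.199), namely those without WT dorsal striatum 1, labelled KO dorsal striatum 7, hypothalamus WT 1 and 3, heterozygous 5 and labelled KO 7. In motor cortex 1 was higher than in dorsal striatum, *Iqsec3* (1.42), and 4 were lower, among them *Gphn* (-0.50) and *Clptm1* (-0.44) (beside 22% and 21.4% of all genes), which became 2 and 3 with library size alone.

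The transmitter genes separated the tissues. *Slc17a7* and *Slc17a6*, the main vesicular glutamate transporter genes, exceeded dorsal striatum by 5.51 and 3.31 in motor cortex, and *Slc17a6* exceeded it by 7.53 in hypothalamus. Dorsal *Slc17a7* had a lowest, median and highest CPM of 1.837, 5.096 and 178.6, the highest in labelled KO 7, and its cortical excess became 7.38 without that library and 6.50 without WT dorsal striatum 2. *Slc17a8* was lower in motor cortex than in dorsal striatum (-2.12). Of 5 genes for GABA synthesis and transport, 3 were lower in motor cortex than in dorsal striatum, *Slc32a1* (-1.77), *Gad2* (-1.65) and *Gad1* (-0.91), and 1 was higher, under both scalings (beside 21.4% and 22% of all genes with TMM factors). In hypothalamus *Slc6a11*, a GABA transporter gene of astrocytes, exceeded dorsal striatum by 2.83 and *Slc32a1* (-0.98) and *Gad1* (-1.06) were lower. *Gad2* was called lower there too (-0.20), but read 0.17 and was not called with library size alone, and was not called without WT dorsal striatum 2 or labelled KO dorsal striatum 8, with values from -0.23 to -0.16 over the left-out libraries. *Gad2* was higher in hypothalamus than in motor cortex by 1.45.

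By genotype, no subunit gene passed. None of the 27 differed between labelled KO and WT at an edgeR adjusted p under 0.05 in dorsal striatum (background 0.387% of all genes), ventral striatum (0.0801%), motor cortex (0.0334%) or hypothalamus (0.167%), and the quasi-likelihood test, DESeq2 and limma voom also called 0. At an unadjusted p under 0.05, 2 genes passed in dorsal striatum (7.94% of all genes), 4 in ventral striatum (5.4%), 2 in motor cortex (4.33%) and 1 in hypothalamus (6.01%). Between heterozygous and WT libraries edgeR called 0 of the 27 in dorsal striatum (0.0868%), ventral striatum (0.0534%), motor cortex (0.0134%) and hypothalamus (0.0935%), as did the other tools. Unadjusted counts there were 1 in dorsal striatum (7.95%), 1 in ventral striatum (4.5%), 0 in motor cortex (3.71%) and 1 in hypothalamus (5.62%). The comparisons with WT share the WT libraries of a region, and WT motor cortex is 1 library whose spread is taken from the other groups.

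The subunit changes in labelled KO over WT had a smaller median size than those of all genes. The median log2 fold change of the 27 genes in labelled KO over WT was -0.05 in dorsal striatum, 0.07 in ventral striatum, -0.01 in motor cortex and 0.01 in hypothalamus. For all genes it lay between 0.00 and 0.01. The median absolute log2 fold change was 0.158 against 0.204 for all genes in dorsal striatum, 0.152 against 0.175 in ventral striatum, 0.127 against 0.203 in motor cortex and 0.137 against 0.157 in hypothalamus. In heterozygous over WT it was 0.116 against 0.186, 0.155 against 0.147, 0.104 against 0.192 and 0.084 against 0.137 in the same order, so larger in ventral striatum. With library size alone the median of all genes moved to 0.28 for labelled KO and 0.20 for heterozygous over WT in dorsal striatum. Of 44 partner genes edgeR called 0 in each comparison with WT. Library size alone called 3 in labelled KO over WT dorsal striatum (3.33% of all genes), all higher, *Cbln1* (2.085, edgeR adjusted p = 0.0455), *Cbln2* (1.75, edgeR adjusted p = 0.022) and *Shank1* (0.73, edgeR adjusted p = 0.0479), and none in the other comparisons with WT. All 3 calls were lost without labelled KO dorsal striatum 7, the library with 441.5 CPM of cortical genes (1.28, -0.78 and 0.63 in the same order), or without WT dorsal striatum 1 (1.45, 1.08 and 0.35), and that of *Shank1* also without labelled KO dorsal striatum 8 (0.82). Without WT dorsal striatum 2 the values rose instead, to 3.46 for *Cbln1*, 3.29 for *Cbln2* and 1.24 for *Shank1*. Without labelled KO dorsal striatum 8 they read 2.56 for *Cbln1* and 2.55 for *Cbln2*. Each of these fits leaves 1 library in a group. *Cbln2* held 36 and 3 counts in the labelled KO libraries 7 and 8 and 2 and 11 in WT. At an unadjusted p under 0.05 the count of partner genes in labelled KO over WT was 7 in dorsal striatum (15.9%, beside 7.94% of all genes), 3 in ventral striatum (6.82%, beside 5.4%), 0 in motor cortex (beside 4.33%) and 7 in hypothalamus (15.9%, beside 6.01%). In heterozygous over WT it was 5 in dorsal striatum (11.4%, beside 7.95%), 1 in ventral striatum (2.27%, beside 4.5%) and 0 in motor cortex and hypothalamus (beside 3.71% and 5.62%).

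**Figure D5:**
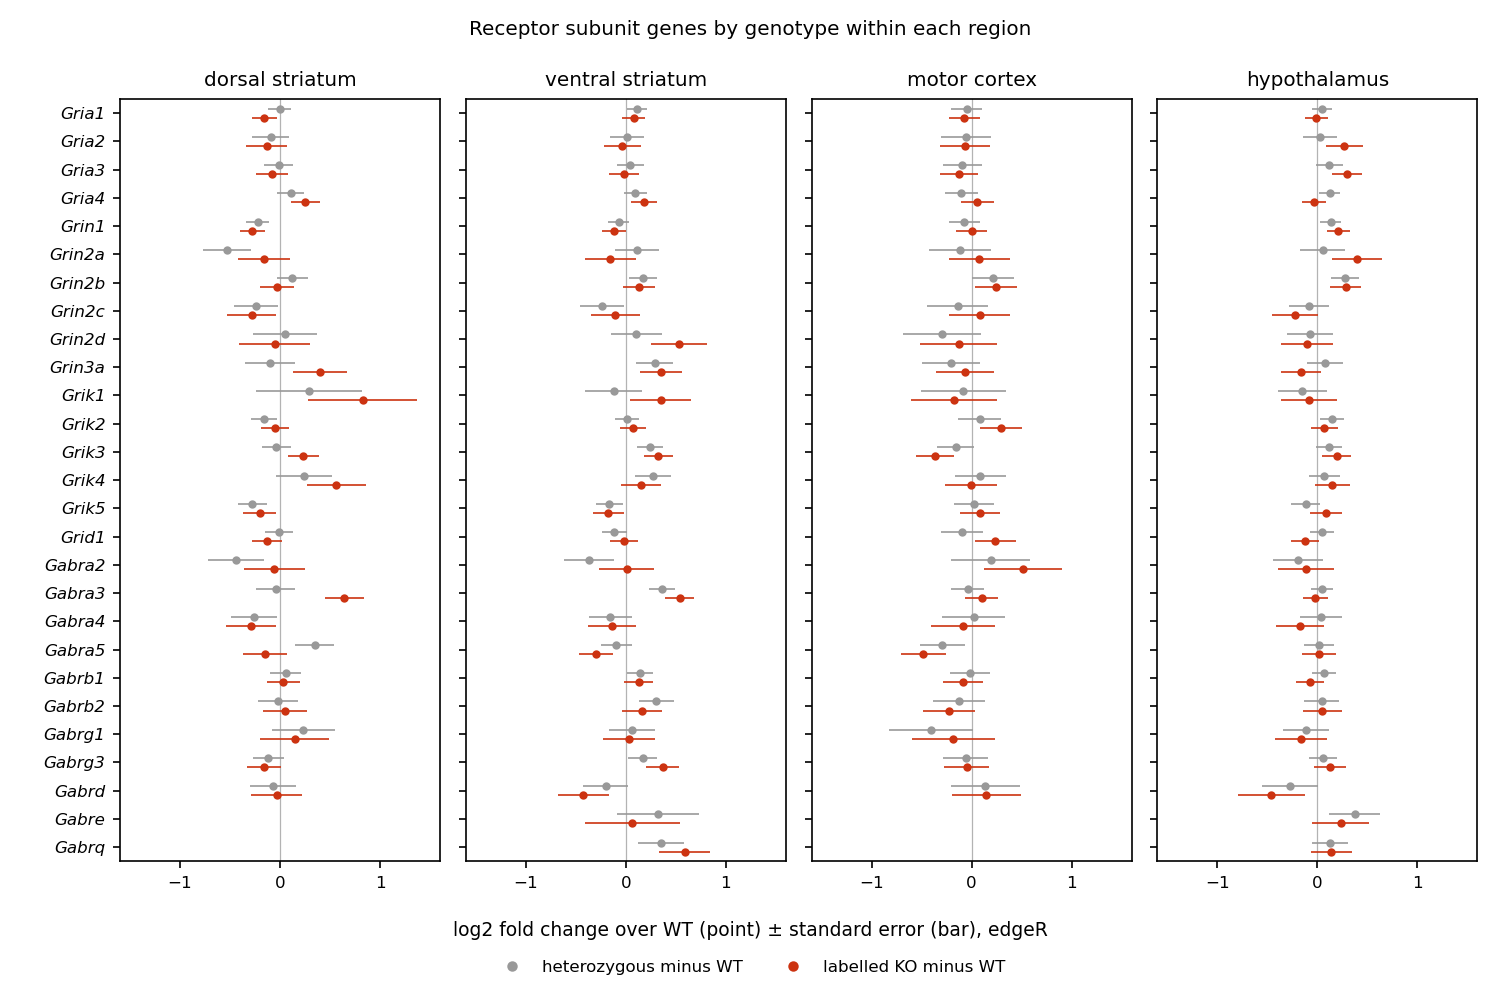
Log2 fold change over WT (point) ± SE (bar) from edgeR for each subunit gene in each region, heterozygous in grey and labelled KO in red, with *Gabre* and *Gabrq* left out in dorsal striatum and motor cortex because of their low counts. No point passed the adjusted threshold with TMM scaling, and *Gabra3* lies farthest from 0 relative to its SE, at 0.64 in labelled KO dorsal striatum and 0.54 in labelled KO ventral striatum, while library size alone calls *Gabra3* and *Gria4* in labelled KO dorsal striatum.

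The smallest genotype p-values belonged to *Gabra3* in the striatum. Its ventral CPM was 33.2, 43.6 and 41.3 in WT, 46.85, 56.6 and 49.6 in heterozygous and 53.2 and 61.5 in labelled KO libraries. All 5 heterozygous and labelled KO libraries lay above all 3 WT libraries. The log2 fold change was 0.54 ± 0.142 for labelled KO (edgeR adjusted p = 0.114) and 0.36 ± 0.129 for heterozygous libraries (edgeR adjusted p = 0.978). In dorsal striatum the CPM was 15.9 and 17.7 in WT, 16.3, 15.45 and 17.4 in heterozygous and 31.8 and 20.5 in labelled KO libraries. Both labelled KO libraries lay above the others, 1 of them far above. The log2 fold change was 0.64 ± 0.197 for labelled KO (edgeR adjusted p = 0.125) and -0.04 for heterozygous libraries.

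Outside the striatum *Gabra3* varied little with genotype. Hypothalamus held 74.75, 72.3 and 77.9 CPM in WT, 79.5, 79.9 and 72.1 in heterozygous and 73.9 and 73.9 in labelled KO libraries, and the 3 ranges overlapped. In motor cortex, with a range from 96.48 to 112.2 CPM, both labelled KO libraries lay above the WT and the heterozygous ones. The log2 fold change of labelled KO over WT was -0.02 in hypothalamus (edgeR adjusted p = 0.999) and 0.10 in motor cortex (edgeR adjusted p = 1). A test of whether the difference varies between the 4 regions gave an edgeR adjusted p of 0.387 for *Gabra3*. None of the 27 passed that edgeR test, nor its quasi-likelihood or DESeq2 form, where 0.14% of all genes did, and 3 had an unadjusted p under 0.05, the others being *Grik3* (edgeR adjusted p = 0.721) and *Grin1* (edgeR adjusted p = 0.816).

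The high dorsal *Gabra3* value of 31.8 CPM was that of labelled KO 7, the library with 441.5 CPM of cortical genes, and its part was not tested. Labelled KO ventral striatum 7 and 8, with the highest and lowest spiny sums of their region, both had high *Gabra3*. Over 12 settings the dorsal log2 fold change ranged from 0.28 to 0.92 with adjusted p from 0.00294 to 0.767. It passed with library size alone (0.92, edgeR adjusted p = 0.00294) and without labelled KO dorsal striatum 8 (0.91, edgeR adjusted p = 0.016), and fell to 0.28 (edgeR adjusted p = 0.767) without labelled KO dorsal striatum 7. Over 13 settings the ventral value ranged from 0.43 to 0.64 with adjusted p from 0.0278 to 0.958, passing only without labelled KO ventral striatum 7 (0.64, edgeR adjusted p = 0.0278). Each of these calls without a library rests on 1 labelled KO library. The test across regions passed for *Gabra3* with library size alone (edgeR adjusted p = 0.0433, within a range from 0.0433 to 1 over 23 settings).

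The share of *Gabra3* among the 4 listed alpha genes per kilobase was lowest in WT in ventral striatum, with 18.75% ± 2.28 (SD, n = 3) in WT, 25.15% ± 1.42 (n = 3) in heterozygous and 22.8% and 33.6% in labelled KO libraries. In dorsal striatum it was 8.02% and 9.45% in WT, 9.43% ± 0.778 (n = 3) in heterozygous and 13.4% and 15.8% in labelled KO libraries. In motor cortex it was 38.8% in the WT library, 39.7% and 41.1% in heterozygous and 43.7% and 45.1% in labelled KO libraries. The means in hypothalamus were 38.9% in WT, 39.7% in heterozygous and 39.4% in labelled KO libraries. In the other classes some shares lay close between genotypes and others did not. *Gria1* held 53.5% of the AMPA genes in WT, 54.8% in heterozygous and 54.7% in labelled KO ventral striatum. *Grik5* held 39.5% ± 1.21 (n = 3) of the kainate genes in WT, 34.3% ± 1.36 (n = 3) in heterozygous and 30.7% and 35.5% in labelled KO ventral striatum, with every WT library above the others. In motor cortex *Grik3* held 41.55% of the kainate genes in the WT library, 36.4% and 40.1% in heterozygous and 32.5% and 35.8% in labelled KO libraries. *Grin2b* held 59.9% ± 1.79 (n = 3) of the GluN2 genes in WT, 65.6% ± 1.26 (n = 3) in heterozygous and 61.8% and 68.9% in labelled KO hypothalamus. The shares by genotype are a description and were not tested.

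The other genes with an unadjusted edgeR p under 0.05 for labelled KO over WT were *Grin1* in dorsal striatum (-0.28 ± 0.127, adjusted p = 0.543), *Grik3* (0.33), *Gabrg3* (0.37) and *Gabrq* (0.59) in ventral striatum, *Grik3* (-0.37) and *Gabra5* (-0.48) in motor cortex and *Gria3* (0.30) in hypothalamus. For heterozygous over WT libraries they were *Grin2a* in dorsal striatum (-0.53) and *Grin2b* in hypothalamus (0.28). *Grik3* thus had opposite signs in ventral striatum and motor cortex, where the test across regions did not pass. Single settings called a few more genes. Library size alone called *Gria4* in dorsal striatum (0.53, edgeR adjusted p = 0.0493), leaving out labelled KO ventral striatum 7 called *Grin2d* there (1.09, edgeR adjusted p = 0.00201) and across regions (edgeR adjusted p = 0.0436) with labelled KO 8 alone (43.77 CPM, lowest spiny sum of its region), and leaving out 3 libraries that stand apart, chosen after seeing the data, called *Gabrg3* there (0.68, edgeR adjusted p = 0.0388) with labelled KO 7 alone, whose 154.1 CPM lay far above the 91.63 to 112.3 of the other ventral libraries.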

How the data were processed

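Total RNA from 28 tissue samples was amplified and sequenced as single-end reads. The authors trimmed reads with Trimmomatic 0.32, removed ribosomal reads with Bowtie2 2.2.3, aligned to GRCm38 with STAR 2.3.1z8, converted and sorted the alignments with SAMtools 0.1.19 and made the deposited HTSeq 0.6.1p1 read count per Ensembl gene. How the counting used the strand is not stated. Of all tallies in the count files, including the rows that name no gene, 44.78 to 54.22% fell on genes. Symbols and exon lengths came from GENCODE M21, which named 28758 of the 29878 genes.

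Genes above 1 CPM in at least 2 libraries were fitted with edgeR 4.0.16 in R 4.3.3 (TMM factors, glmFit and glmLRT, 12 group means, prior count 2 for log2 values). A region mean is the mean of its 3 genotype groups. P-values were adjusted over 14979 genes (Benjamini-Hochberg), with 0.05 as the threshold. Ratios of counts were compared by exact permutation tests over libraries, two-sided, adjusted over 24 tests. Shares used CPM per kilobase of exon union. Genotypes were compared within a region and regions over all genotypes. The procedure was tested on simulated data. No pair of libraries in a group was a duplicate.

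All 27 subunit genes are named. From each partner list up to 3 genes with the smallest p past the threshold in a comparison are named, and the most abundant gene of each marker list shown, and *Hdc*. Partner genes whose call depends on scaling or 1 library, and WT ventral striatum 1, are named after their values were seen. Members and lists were chosen with earlier results of these data known, and 1 gene was dropped from the GABA-A anchoring list afterwards. Microglial, endothelial, interneuron, oligodendrocyte and astrocyte lists were summed too. Their medians in dorsal striatum, ventral striatum, motor cortex and hypothalamus were 4330, 4657, 2295 and 3876 CPM for oligodendrocyte genes and 6382, 5260, 7740 and 4392 CPM for astrocyte genes. For microglial genes they were 184.1, 206.1, 132 and 104.4, for endothelial genes 135.4, 109, 130.3 and 117.1 and for interneuron genes 188.1, 202.6, 250.3 and 106.5.

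Alternatives were library size alone, DESeq2 size factors, the DESeq2 1.42.0 Wald test, the quasi-likelihood test, no filter on low counts, an additive model, only the libraries compared, the replicate number as a fixed block, as a paired sign-flip test or in limma 3.58.1 voom (correlation -0.0151), no prior count, other lengths and leaving out each library in turn. A fit without 3 libraries that stand apart (labelled KO dorsal striatum 8, WT dorsal striatum 1, labelled KO ventral striatum 8) and a fit of WT libraries only were chosen after seeing the data, as were library size alone for the partner genes by genotype and leaving out single libraries for them and for the pooled counts.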

Additional observations from a re-analysis of the deposited data

Results flagged for a closer look

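In 9 of 108 sets of a subunit gene and a region, 1 library lay far from the others of its region by Dixon's criterion, where chance gives about 1 in 20. Labelled KO dorsal striatum 7, the library with 441.5 CPM of cortical genes, held 3 of them. Its *Grin3a* was 27.2 CPM against 14.1 to 18.6 in the other dorsal libraries, its *Grik3* was 160 against 117 to 127, and its *Gabra3* was 31.8 against 15.45 to 20.5. Labelled KO dorsal striatum 8, with 2840 CPM of choroid plexus genes, had 5.25 CPM of *Grik1* against 1.38 to 2.45. WT dorsal striatum 1, the library with the highest spiny sum (12240 CPM), had 202 CPM of *Gabra4* against 134 to 163. In ventral striatum, labelled KO 8 had 83 CPM of *Gria4* against 59.1 to 69.2, and labelled KO 7 had 154 CPM of *Gabrg3* against 91.6 to 112. Heterozygous hypothalamus 5 had 76.9 CPM of *Grik2* against 60.2 to 66.2 and 33.1 CPM of *Gabre* against 15.4 to 23. The part of the marker sums in these values was not tested.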

How the results depend on the processing

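Of the recomputed counts of subunit genes, 403 stayed within 1.5 times the reported count and 7 moved. Single log2 fold changes kept direction and side of the threshold in 3703 cases, lost the call in 94, gained it in 51 and changed sign in 39. Ratio steps did so in 331 cases, lost the call in 45, gained it in 1 and changed sign in 7. Shares without length or with the longest transcript moved by more than the SD between libraries in 125 cases and by less in 43. Each of the 39 fold changes was a difference that had not passed in the reported fit, and the causes were not tested. With library size alone the sign changed for *Grin2b* (0.11) and *Gabrg1* (0.01) in motor cortex over dorsal striatum, *Gabra2* in hypothalamus over dorsal striatum (0.05), *Grik3* (0.06), *Gabra5* (0.06), *Gabrb2* (0.00) and *Gabrg1* (0.07) in hypothalamus over ventral striatum, *Gria4* in hypothalamus over motor cortex (0.15) and *Grid1* in dorsal over ventral striatum (-0.07), and edgeR called 2 genes in labelled KO dorsal striatum and 1 across regions. With the additive model *Gabre* read 0.23 in motor cortex over dorsal striatum and *Gabrd* 0.01 over ventral striatum. Without the 3 libraries that stand apart, motor cortex over dorsal striatum read -0.02 for *Grin1*, 0.02 for *Gabrg1* and 0.28 for *Gabre*, and 1 gene was called in labelled KO ventral striatum. With WT libraries only it read -0.13 for *Grin1* and 0.20 for *Gabrg1*, *Gria2* read 0.01 in motor cortex over ventral striatum, *Gria1* read 0.09 in dorsal over ventral striatum, and 7 genes in place of 11 were higher in hypothalamus than motor cortex with fewer libraries. With no prior count the *Grin2a* to *Grin2b* step from ventral striatum to hypothalamus was 0.28 and was not called. The replicate number as a fixed block kept 18 of 20 calls in motor cortex over ventral striatum. It kept 23 of 24 in hypothalamus over motor cortex and every call in the other region pairs. The paired sign-flip test passed no ratio. Its 5 pairs with motor cortex allow no p below 0.0625, and the 7 or 8 pairs of the other regions none below 0.0156 or 0.00781, which 5 ratio steps reached with an adjusted p of 0.0625. In the order motor cortex over dorsal and over ventral striatum, hypothalamus over dorsal striatum, ventral striatum and motor cortex, and dorsal over ventral striatum, its values were -0.46, -0.80, 0.97, 0.74, 1.49 and -0.23 for *Gria1* to *Gria2* and 0.47, 0.42, -0.40, -0.40, -0.92 and -0.01 for *Gabrb2* to *Gabrb1*. For *Gabra4* to *Gabra3* they were -3.25, -0.97, -3.59 and -1.34 in the first 4 and 2.27 in the last, and for *Grin2a* to *Grin2b* 1.36, 1.55, 0.29 (hypothalamus over ventral striatum) and -1.27 (over motor cortex). Leaving out 1 library at a time, motor cortex over dorsal striatum ranged from -0.02 to 0.09 for *Grin1*, -0.05 to 0.04 for *Grin2b*, -0.27 to 0.09 for *Gabrg1* and -0.91 to 0.52 for *Gabre*, whose counts there are near 0. Motor cortex over ventral striatum ranged from -0.12 to 0.11 for *Gria2*, -0.20 to 0.17 for *Gabra4* and -0.10 to 0.14 for *Gabrd*, and *Gria1* in dorsal over ventral striatum from -0.07 to 0.02. Ratios ranged from 0.06 to 0.29 (*Grin2a* to *Grin2b*), -0.28 to -0.19 (*Gria1* to *Gria2*) and -0.06 to 0.10 (*Gabrb2* to *Gabrb1*) in dorsal over ventral striatum, and from 0.23 to 0.35 (*Grin2a* to *Grin2b*) and -0.47 to -0.32 (*Gabrb2* to *Gabrb1*) in hypothalamus over ventral striatum. Genes called in labelled KO over WT ranged from 0 to 1 in dorsal and 0 to 2 in ventral striatum, and from 0 to 1 across regions. A group left with 1 library is assumed to vary like the others. Calls between regions were kept in every such fit for 16 of 18 genes in motor cortex over dorsal striatum, 17 of 20 over ventral striatum, 25 of 25 in hypothalamus over dorsal striatum, 20 of 22 over ventral striatum, 21 of 24 over motor cortex and 19 of 22 in dorsal over ventral striatum. Calls lost there and not given with the genes were, with the range over the left-out libraries, *Grik3* in motor cortex over ventral striatum (0.21 to 0.46, without WT motor cortex 2), *Gabrb1* in the same pair (-0.33 to -0.22, heterozygous motor cortex 5 or labelled KO ventral striatum 7), *Grin2c* in hypothalamus over motor cortex (-0.48 to -0.34, heterozygous motor cortex 5, labelled KO motor cortex 7 or labelled KO hypothalamus 8), *Gabra5* in that pair (-0.35 to -0.14, heterozygous hypothalamus 4 or 6, heterozygous motor cortex 5, labelled KO motor cortex 7 or WT motor cortex 2) and *Gabrb2* in dorsal over ventral striatum (-0.42 to -0.25, labelled KO dorsal striatum 7 or labelled KO ventral striatum 8). Depth limits *Gabre* and *Gabrq* in dorsal striatum and motor cortex most.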
